A study of Homo sapiens with 58 samples.

Results

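MHC class II genes and their regulator CIITA were followed across 58 human cell lines, as 8 genes (CIITA, CD74, HLA-DRA, HLA-DRB1, HLA-DMA, HLA-DMB, HLA-DPA1 and HLA-DPB1) chosen by name from the 19798 genes with a probe set naming a single gene. Where a gene had several probe sets, the one with the highest mean over the lines was used. HLA-DRB1 has no probe set of its own, and its row here is a probe set annotated jointly to HLA-DRB1, HLA-DRB3, HLA-DRB4 and HLA-DRB5, called HLA-DRB1/3/4/5 below; no value is given for HLA-DRB1 alone. The lines are all labelled as breast cancer, were grown without treatment as their supplier advises, and were each measured on 1 custom Affymetrix array, so there are no replicates. The labels give no subtype, no passage and no grouping. By textbook knowledge, 14 lines belong to 6 sets of common origin (AU565 and SKBR3; EFM192A, EFM192B and EFM192C; HMT3522S1 and HMT3522T42; MDAMB435S with its derivatives M4A4 and NM2C5; VP229 and VP267; MB157 and MDAMB157). Tests over lines averaged each set into 1 unit, which left 50 units. MCF102A, MCF12A, SVCT and HMT3522S1 are known as immortalised rather than tumour lines, and HMT3522T42 is the malignant derivative of HMT3522S1. Published work places the origin of the MDAMB435 lines and of MT3 outside the breast. M4A4 and NM2C5 are each 1 clone of MDAMB435.

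Values are log2 intensities, on which a difference of 1 is 2-fold. Array medians lay between 5.37 and 5.58, and relative to the median array the middle of each array's genes spread over 0.45 to 0.64 (interquartile range). Background is taken as 5.59, the 95th percentile of 612 viral probe sets, whose median was 3.31. The resting level of several members lies well below this threshold, so a gene can rise several-fold and still count as background. A line's value is an average over its cells, so a few cells with much of a transcript and many cells with little cannot be told apart. Levels of different genes come from different probes and are not compared with each other. The epithelial markers EPCAM, CDH1, KRT18 and KRT19 were all above background in 43 of 58 lines. In MDAMB435S, the line with the highest value of every member, KRT18 was at 8.13 but EPCAM at 3.997, CDH1 at 3.83 and KRT19 at 4.98, all below background.

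MHC class II molecules present peptides from the endocytic pathway to CD4+ T cells. They are normally carried by B cells, dendritic cells and macrophages, and other cells make them after exposure to interferon gamma. CIITA does not bind DNA itself: it is recruited to a short block of promoter elements, among them the X and Y boxes held by the RFX, CREB and NF-Y factors, and activates the class II genes together. CD74, the invariant chain, guides the new molecules and blocks their groove, HLA-DRA with the HLA-DRB chains and HLA-DPA1 with HLA-DPB1 form the presenting heterodimers, and HLA-DMA with HLA-DMB forms the editor that exchanges the blocking peptide for others.

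The stretch upstream of the transcript start, where these elements lie, is shown for 5 members because it is the shared sequence through which CIITA acts. RefSeq promoter entries on GRCh38.p14 matched 6 of the 8 members, with 2 entries for HLA-DPA1. Bases -130 to -16 relative to the start are printed 5′ to 3′ on the gene's strand. Capitals mark 2 short motifs, chosen after these sequences had been seen: CNAGNNAC, a core of the X box, and ATTGG, a core of the Y box, each on either strand, so that CCAAT is the latter on the other strand.
CD74 (chr5:150412926-150413040, minus strand): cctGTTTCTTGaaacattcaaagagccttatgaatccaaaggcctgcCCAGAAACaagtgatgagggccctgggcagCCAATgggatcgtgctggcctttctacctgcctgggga
HLA-DRB1 (chr6:32589864-32589978, minus strand): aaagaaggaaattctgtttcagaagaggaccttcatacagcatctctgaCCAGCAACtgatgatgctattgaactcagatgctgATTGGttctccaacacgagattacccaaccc
HLA-DMA (chr6:32953113-32953227, minus strand): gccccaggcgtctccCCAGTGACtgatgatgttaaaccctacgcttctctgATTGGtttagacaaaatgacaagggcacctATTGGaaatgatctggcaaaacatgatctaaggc
HLA-DMB (chr6:32941044-32941158, minus strand): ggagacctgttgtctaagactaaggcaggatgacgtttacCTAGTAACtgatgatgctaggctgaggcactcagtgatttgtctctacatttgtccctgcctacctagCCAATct
HLA-DPB1 (chr6:33075860-33075974, plus strand): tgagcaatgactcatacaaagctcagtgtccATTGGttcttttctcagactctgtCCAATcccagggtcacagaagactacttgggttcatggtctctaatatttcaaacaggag

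In CD74, HLA-DRB1 and HLA-DMA the X motif on the gene's strand was followed by the Y motif, with first bases 30, 35 and 36 bases apart. The X motif began at -83 in CD74, -81 in HLA-DRB1 and -115 in HLA-DMA. HLA-DMB had the X motif at -90 but its Y motif only at -22. HLA-DPB1 had the Y motif on both strands and no X motif in the 250 bases searched, and neither HLA-DPA1 entry held the pair. Over 35114 promoter windows of the same length, 33.2% held the X motif, 11240 windows the Y motif and 0.678% (238 windows) an X motif followed by a Y motif with 25 to 45 bases between their first bases. HLA-DQA1, HLA-DQB1, HLA-DOA and HLA-DRB5 held such a pair as well, and HLA-DQA2, HLA-DQB2 and HLA-DOB did not. A match describes letters and no match says only that these letters are not in the window.

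CIITA, the regulator, was high in few lines. Over 58 lines its level ran from 2.51 in EFM192A through a median of 3.34 to 8.38 in MDAMB435S. The lines above background were MDAMB435S, M4A4 at 6.82 and MDAMB231 at 5.74. HCC70 at 5.49, HCC1187 at 5.44, HMT3522T42 at 5.24, SUM149PT at 5.04 and HCC1954 at 4.81 followed, all at least 1 log2 unit above the median, and MCF12A came next at 4.34. Without replicates the only measure of spread is the difference between related lines, whose median over all genes lay between 0.205 and 0.49 for the 10 pairs. Only 2 of the 57 gaps between neighbours in the order of CIITA exceeded 0.49, those below MDAMB435S and below M4A4, so the order of the other lines is not resolved at this scale. Over the 50 units a mixture of 2 components was preferred, with 43 units around 3.27 and 7 around 5.35. The higher component held MDAMB435, MDAMB231, HCC70, HCC1187, SUM149PT, HCC1954 and HMT3522, and it nearly touched the lower one (4.51 for HMT3522 against 4.34 for MCF12A). These values come from 1 of 2 CIITA probe sets. The other stayed between 2.62 and 3.30, was above background in 0 lines and did not follow the first (r = -0.06 over 58 lines).

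**Figure D1:**
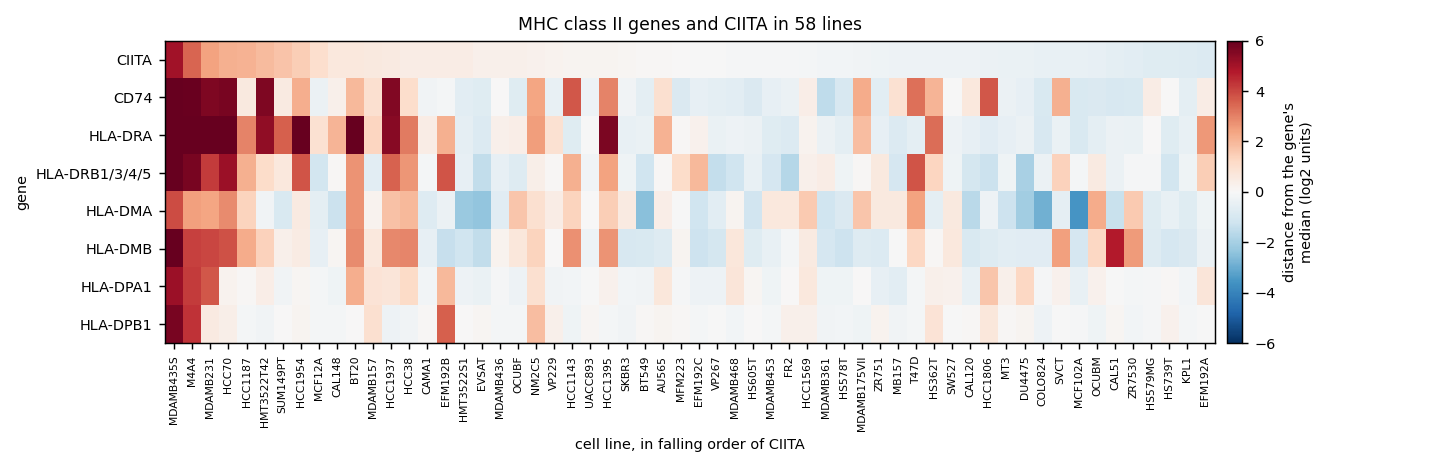
Each column is 1 of 58 lines in falling order of CIITA and each row a gene; colour gives the distance of the line's log2 intensity from that gene's median over the lines. The columns at the left, from MDAMB435S to HCC70, are raised for most members. Further right, HCC1937, HCC1395 and T47D are raised for several members and CAL51 for HLA-DMB alone.

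CD74, the invariant chain, was above background in 47 of 58 lines and ran from 4.76 in MDAMB361 through a median of 6.30 to 12.84 in MDAMB435S. M4A4 at 12.22, HCC70 at 11.99, HMT3522T42 at 11.92, MDAMB231 at 11.89 and HCC1937 at 11.87 were close behind, and 1.83 log2 units separated HCC1937 from the next line, HCC1806. HCC1937 was thus among the highest lines for CD74 while its CIITA was 3.90. Conversely, HCC1187 and SUM149PT, both in the higher CIITA component, had CD74 at 6.87 and 6.86. The other 2 CD74 probe sets followed the one used (r = 0.99 each), with 32 and 33 lines above background.

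HLA-DRA, the invariant alpha chain of HLA-DR, had the widest range of the members. It ran from 2.45 in COLO824 through a median of 3.39 to 12.60 in MDAMB435S, and 15 lines were above background. The next values were 11.57 in M4A4, 10.35 in MDAMB231, 10.04 in HCC1954, 9.86 in BT20, 9.71 in HCC70, 9.05 in HCC1395, 8.84 in HCC1937 and 8.72 in HMT3522T42. A gap of 1.75 then separated these lines from SUM149PT at 6.97. The shared HLA-DRB1/3/4/5 probe set, for the beta chains that pair with HLA-DRA, ran from 3.92 in DU4475 through 5.85 to 13.03 in MDAMB435S and was above background in 39 lines. It was high together with HLA-DRA in M4A4 at 11.57, HCC70 at 10.9975, MDAMB231 at 10.03 and HCC1954 at 9.61. EFM192B at 9.64 and T47D at 9.63 came between MDAMB231 and HCC1954. Their HLA-DRA was 5.52 and 2.83, both below background. HLA-DRB genes are polymorphic and near-identical, and lines differ in which of them they carry, so this probe set can miss or mix them. A second probe set of the same annotation had r = 0.90 with it and was above background in 23 lines.

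HLA-DMA and HLA-DMB, the chains of the peptide editor, differed in how widely they were found. HLA-DMA was above background in 52 lines and ran from 3.96 in MCF102A through 7.50 to 11.41 in MDAMB435S, with HCC70 at 10.34, BT20 at 10.18, M4A4 at 9.98 and T47D at 9.90 next. HLA-DMB was above background in 21 lines and ran from 3.52 in EVSAT through 5.01 to 11.07 in MDAMB435S. Its next highest line was CAL51 at 9.75, where CD74 was 5.35, below background. M4A4 at 9.10, MDAMB231 at 9.02 and HCC70 at 8.83 followed CAL51.

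HLA-DPA1 and HLA-DPB1, the chains of HLA-DP, were above background in 3 lines each. HLA-DPA1 ran from 2.37 in MB157 through 3.01 to 8.14 in MDAMB435S, with 7.22 in M4A4, 6.74 in MDAMB231 and 5.18 in BT20. HLA-DPB1 ran from 2.49 in COLO824 through 2.80 to 8.51 in MDAMB435S, with 7.14 in M4A4, 6.38 in EFM192B and 4.65 in NM2C5. The partner chains thus parted in MDAMB231, where HLA-DPA1 was raised and HLA-DPB1 stood at 3.36, within 1 log2 unit of its median.

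Counting a gene as raised in a line where it lay at least 1 log2 unit above its own median over the 58 lines, CIITA was raised in 8 lines, and HLA-DRA was raised in all 8. HLA-DRA was also raised in 12 further lines in which CIITA was not, among them BT20, HCC1937, HCC1395, HCC38, HS362T, MDAMB175VII, CAL148 and NM2C5. CD74 was raised in 17 lines, with HLA-DRA in 13 of them. The other 4 were HCC1806, T47D, HCC1143 and SVCT, where CD74 was 10.04, 9.58, 10.03 and 8.41 and HLA-DRA 2.70, 2.83, 2.68 and 3.0034. The shared DRB probe set was raised in 19 lines, 14 with HLA-DRA and 5 without (MFM223, T47D, EFM192C, HCC1143 and SVCT). T47D showed this most, with HLA-DRB1/3/4/5 at 9.63 and HLA-DMA at 9.90 beside its low HLA-DRA. The second probe set annotated to HLA-DRB1/3/4/5 read only 6.41 in T47D, against a mean of 5.82 over the lines and 10.77 in MDAMB435S. HLA-DMA and HLA-DMB were raised together in 13 lines, of 16 and 17. HLA-DPA1 was raised in 8 lines, HLA-DPB1 in 4 and both in 3 (MDAMB435S, M4A4 and EFM192B).

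At least 5 of the 7 genes other than CIITA were raised in 8 lines, HCC1937, MDAMB231, HCC70, HCC1395, HCC38, BT20, MDAMB435S and M4A4. All 7 were raised in MDAMB435S and M4A4, and none in 26 lines. Of the 10 units with the highest values, HLA-DRA shared 8 with HLA-DRB1/3/4/5 and 6 with CIITA, and CIITA shared 4 with CD74 and 3 with HLA-DPB1. MDAMB231 and MDAMB435 were among the 10 highest units for all 8 members and HCC70 for 7.

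**Figure D2:**
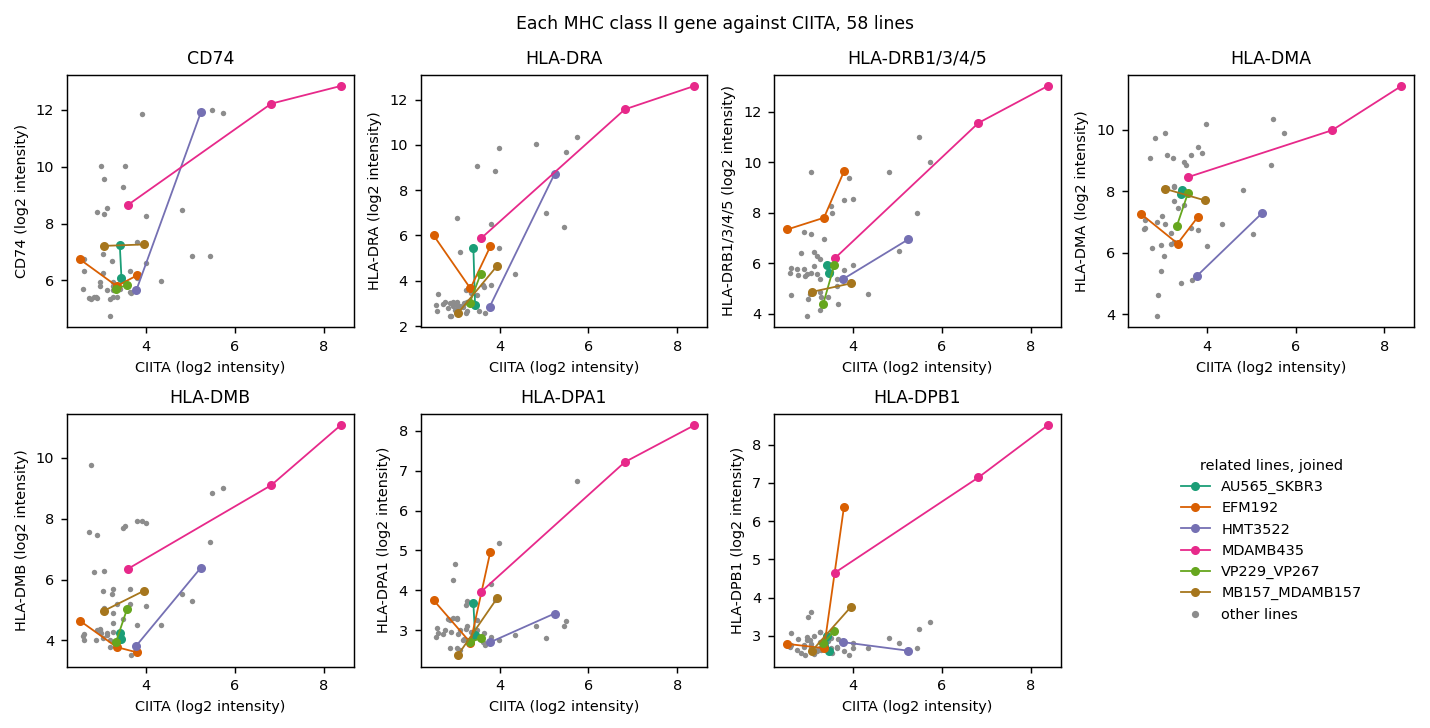
Each panel plots 1 gene (vertical axis, log2 intensity) against CIITA (horizontal axis, log2 intensity), 1 point per line, with lines of common origin in colour and joined. The MDAMB435 lines reach the upper right of every panel, and the raised grey points at low CIITA in the CD74, HLA-DMA and HLA-DMB panels have no counterpart in CIITA.

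To relate each gene to CIITA, limma was fitted to the 14651 genes that exceeded the median of the array in 3 or more of the 50 units, with the level of CIITA as a continuous term and the CIITA component as a factor, so that the slope is the one within components. With Benjamini-Hochberg adjustment 0 of 14651 genes passed an adjusted p of 0.05 in this fit (percent called 0), against 607 at an unadjusted p under 0.05. None of the 5 members tested passed. The slope of HLA-DRA, in log2 units per log2 unit of CIITA, was 2.19 ± 0.51 (SE; limma unadjusted p = 9.69e-05, adjusted p = 0.710). HLA-DMA had 1.14 ± 0.47, CD74 1.12 ± 0.53, HLA-DMB 1.01 ± 0.48 and HLA-DRB1/3/4/5 1.01 ± 0.47, with limma unadjusted p between 0.0189 and 0.0422 and adjusted p of 0.989. HLA-DPA1 and HLA-DPB1 did not pass the filter on low values, being above the array median in 2 and 1 units. Without the filter their slopes were 0.66 ± 0.25 and 0.37 ± 0.19 (SE), with limma adjusted p of 0.996.

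A fit without the component factor, added after the data had been seen, takes in the difference between the components. It called 7 genes, 5 of them higher with CIITA, which is 0.0341% of the 14651 genes tested. These 5 were HLA-DRA, HLA-DRB1/3/4/5, CD74, HLA-DRB3 and HLA-DRB4, so 3 of the 5 members tested passed. Its slopes were 2.22 ± 0.26 (SE) for HLA-DRA (limma adjusted p = 3.84e-07), 1.26 ± 0.24 for HLA-DRB1/3/4/5 (0.00741) and 1.28 ± 0.27 for CD74 (0.0359). HLA-DMB, at 0.93 ± 0.25 (SE), and HLA-DMA, at 0.71 ± 0.24, did not pass (limma adjusted p of 0.290 and 0.438). Of the slopes called, HLA-DRA passed in all 50 fits that each left out 1 unit. HLA-DRB1/3/4/5 did not pass without HCC70, MDAMB231 or MDAMB435. CD74 did not pass without any one of these or of CAL51, COLO824, DU4475, HCC1954, HMT3522, KPL1, OCUBM and ZR7530, and HLA-DMB passed without CAL51. Without MDAMB231 the fit called 2 genes, without HCC70 4 genes and without MDAMB435 7, with 1 member in each. The genes lower with CIITA were IRAK1BP1, with a slope of -0.98 ± 0.14 (SE, limma adjusted p = 4.6e-05), and the transcription factor ARID3A, with -0.89 ± 0.18 (0.0141).

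Because CIITA formed 2 components, correlations were taken within each, and 14 were computed; their p-values are not adjusted and they use the same units as the slopes. Only the units MDAMB435 and MDAMB231 had CIITA above background, so CIITA was below it in all 43 units of the lower component. HLA-DRA was above background in 12 of all 50 units. Within the lower component these were only BT20, HCC1937, HCC38, HCC1395 and HS362T. In all other units of that component both CIITA and HLA-DRA were below background. Among the 43 units of the lower component, HLA-DRA followed CIITA with Pearson r = 0.515 (permutation p = 0.00036, 2-sided) and Spearman rho = 0.547 (permutation p = 0.00015). Without MCF12A and CAL148, the units farthest from the median of CIITA, r was 0.536. The other members had r from -0.13 to 0.22 there, with permutation p of 0.16 or more, and HLA-DMA reached r = 0.318 without those 2 units (permutation p = 0.043). Among the 7 units of the higher component HLA-DMB had r = 0.887 (exact permutation p = 0.0063) and rho = 0.929, and r = 0.924 without HMT3522 and MDAMB435 (exact permutation p = 0.033). HLA-DMA had r = 0.831 (exact permutation p = 0.022) and rho = 0.857, and r = 0.766 without those 2 units (exact permutation p = 0.15), so that this relation no longer passed. HLA-DPA1 had r = 0.774 and HLA-DPB1 r = 0.762 (exact permutation p = 0.042 and 0.013). Without the same 2 units r was 0.68 and 0.529 (exact permutation p of 0.26 and 0.36). With so few units left, a lost p-value cannot show whether these relations rest on the units left out. Over all 50 units HLA-DPA1 was above background in 2 and HLA-DPB1 in 1. HLA-DRB1/3/4/5, CD74 and HLA-DRA had r of 0.664, 0.572 and 0.564 (exact permutation p of 0.11, 0.18 and 0.18).

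Lines of common origin differed in these genes. Because each line is 1 array, these differences have no test. Taking members at least 1 log2 unit apart, 48 of 80 values (8 members in 10 pairs) were apart. Some of these members were below background in both lines of the pair, where the size of a difference cannot be read. The share of all 14652 genes compared that were this far apart differed between pairs and is given for each below. These genes leave out HLA-DPA1 and HLA-DPB1, which did not pass the filter on low values. The pairs within a set of 3 share lines.

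M4A4 and NM2C5, both derived from MDAMB435, differed in all 8 members, where 5.42% of all genes did. CIITA was 6.82 in M4A4 and 3.59 in NM2C5, CD74 12.22 and 8.65, HLA-DRA 11.57 and 5.88, and HLA-DRB1/3/4/5 11.57 and 6.20. HLA-DRA was thus 51.6-fold higher in M4A4, HLA-DRB1/3/4/5 41.3-fold, CD74 11.9-fold, HLA-DMB 6.74-fold and HLA-DMA 2.86-fold. CIITA, HLA-DPA1 and HLA-DPB1 were below background in NM2C5, at 3.59, 3.96 and 4.65, and against the background level they were at least 2.35-fold, at least 3.1-fold and at least 2.94-fold higher in M4A4. Between the same lines 0 of 15 type I interferon induced genes and 0 of 11 genes of interferon gamma signalling were this far apart, and 2 of 14 interferon gamma induced genes, 1 of 15 genes of the MHC class I pathway, 4 of 9 epithelial, 3 of 9 luminal and 3 of 10 mesenchymal genes were higher in M4A4. MDAMB435S, the third of the set, exceeded NM2C5 in all 8 members (13.9% of all genes apart) and M4A4 in 6 (13.2%). It also had 8 of 15 type I interferon induced and 6 of 14 interferon gamma induced genes higher than NM2C5, and 7 of 15 and 1 of 14 higher than M4A4. The part of these gene groups in the differences of the members was not tested. All 3 lines carried some melanocyte transcripts, with TYR, the enzyme of pigment synthesis, at 10.19, 12.65 and 13.06 and MLANA at 9.28, 7.72 and 12.999 in MDAMB435S, M4A4 and NM2C5. In MDAMB435S 5 of the 7 measured melanocyte markers were above background, while PMEL at 5.10 and TYRP1 at 3.78 were below it. Of these 7 markers, 6 were at least 1 log2 unit lower in MDAMB435S than in NM2C5.

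HMT3522T42, the malignant derivative of the non-malignant HMT3522S1, had 6 members at least 1 log2 unit higher, against 13.7% of all genes apart. CD74 was 11.92 against 5.65, which is 77.3-fold, and HLA-DRA 8.72 against 2.86, which is at least 8.75-fold against the background level, since HMT3522S1 was below it. HLA-DMB was 6.39 against 3.82, HLA-DMA 7.28 against 5.25, HLA-DRB1/3/4/5 6.94 against 5.38 and CIITA 5.24 against 3.78. Both CIITA values were below background. HLA-DPA1 and HLA-DPB1 were within 1 log2 unit. Here 8 of 15 type I interferon induced genes and 7 of 15 MHC class I pathway genes were also at least 1 log2 unit higher in HMT3522T42 and 0 of either lower, and their part in the difference was not tested.

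In the EFM192 set different members were apart in different lines. HLA-DPB1 was 6.38 in EFM192B and 2.79 and 2.67 in EFM192A and EFM192C, and HLA-DRB1/3/4/5 was 9.64 in EFM192B against 7.34 and 7.81. HLA-DRA was lower in EFM192C, at 3.66, than in EFM192A at 6.0045 and EFM192B at 5.52. The HLA-DRA values of EFM192B and EFM192C were both below background. CIITA, HLA-DMB and HLA-DPA1 were below background in all 3 lines, so the sizes of their differences cannot be read. CD74 lay between 5.80 and 6.74 in all 3. Of the members, 5 were apart between EFM192B and EFM192A (23.8% of all genes), 4 between EFM192B and EFM192C (20.4%) and 2 between EFM192A and EFM192C (20.1%). All 15 type I interferon induced genes were at least 1 log2 unit higher in EFM192B than in EFM192C and 13 of 15 higher than in EFM192A, and 14 of 15 were higher in EFM192A than in EFM192C. IFI27, for example, was 13.46, 11.79 and 6.48 in EFM192B, EFM192A and EFM192C. The part of these genes in the differences of the members was not tested.

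**Figure D3:**
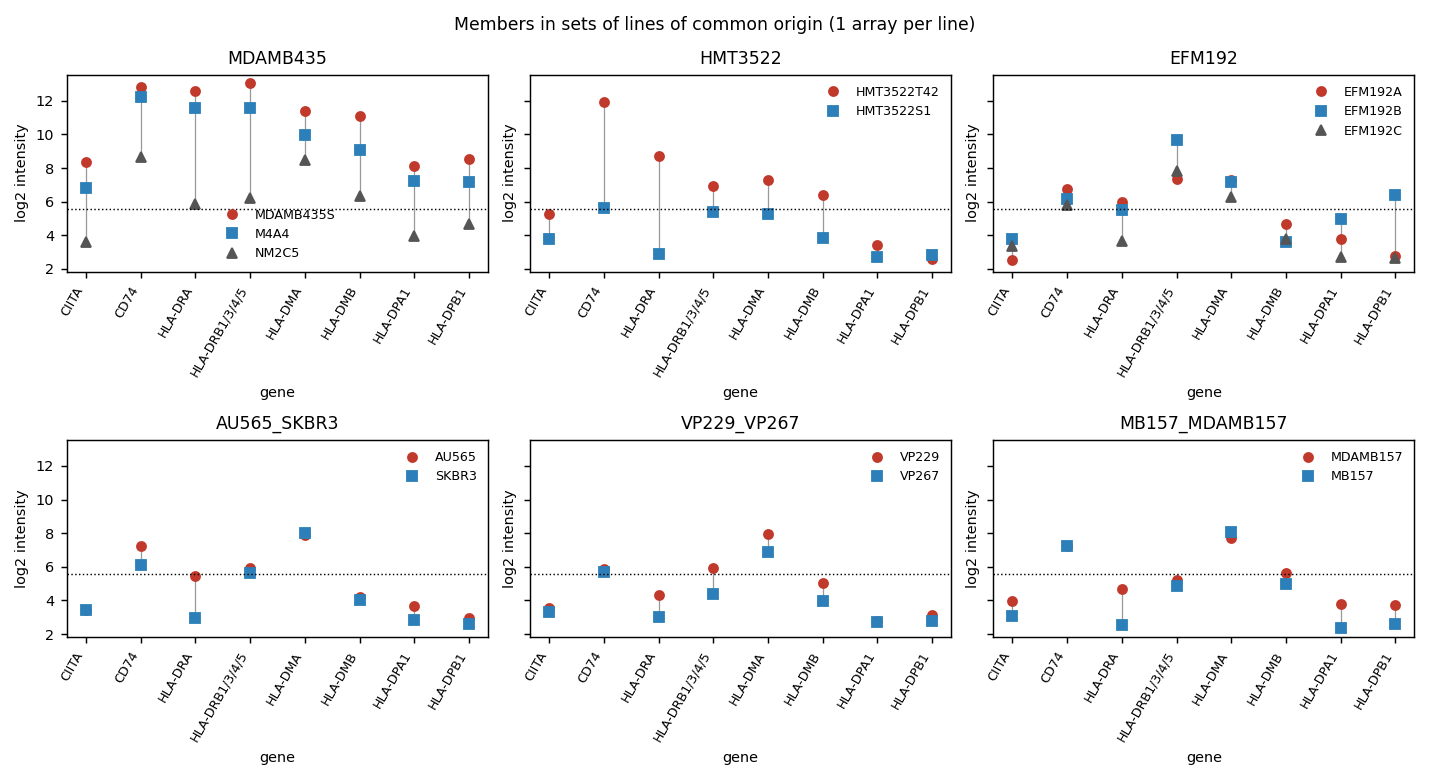
Each panel shows 1 set of lines of common origin, with the 8 genes on the horizontal axis and log2 intensity on the vertical axis; each symbol is 1 line (1 array) and the dotted line is the background of 5.59. In the MDAMB435 panel NM2C5 lies below the other two lines for every gene, and in the HMT3522 panel CD74 and HLA-DRA are far apart while HLA-DPA1 and HLA-DPB1 are not.

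In the remaining sets between 2 and 4 members were apart. Of these, HLA-DRA was below background in both lines of each set. So was HLA-DMB in VP229 and VP267, and so were HLA-DPA1 and HLA-DPB1 in MDAMB157 and MB157. The sizes of these differences cannot be read. AU565 exceeded SKBR3 in HLA-DRA (5.46 against 2.93) and CD74 (7.26 against 6.09), 2 of 8 members where 9.13% of all genes were apart. VP229 exceeded VP267 in HLA-DRB1/3/4/5 by 1.53, HLA-DRA by 1.29, HLA-DMB by 1.07 and HLA-DMA by 1.05, 4 of 8 members where 25.5% of all genes were apart. MDAMB157 exceeded MB157 in HLA-DRA by 2.10, HLA-DPA1 by 1.44 and HLA-DPB1 by 1.16, 3 of 8 where 24.7% were apart, and 14 of 15 type I interferon induced genes and all 10 mesenchymal genes were higher in MDAMB157 as well. Of 9 epithelial genes, 8 were higher in MB157, where CDH1 was 12.77 against 6.23 and EPCAM 13.23 against 8.55. The part of these groups in the differences of the members was not tested.

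The other MHC class II genes with a probe set of their own numbered 8 of 11 listed, of which 5 passed the filter. HLA-DRB3 and HLA-DRB4, further beta chains of HLA-DR, were called in the fit without the component factor and not in the fit with it, with slopes of 0.95 ± 0.17 and 0.49 ± 0.08 (SE; limma adjusted p of 0.00345 and 0.0021). HLA-DRB4 did not pass without MDAMB231 or without MDAMB435. HLA-DRB3 exceeded the array median in only 3 units, MDAMB435, MDAMB231 and HCC1143, the fewest the filter allows. Leaving out any of these therefore removed it from the test and says nothing of its slope. MDAMB435 and MDAMB231 also lie in the higher CIITA component. HLA-DRB3 was 12.27 in MDAMB435S, 10.72 in M4A4 and 8.65 in MDAMB231, with a median of 3.30 over the lines. HLA-DRB4 was highest in M4A4 at 10.59 and stood at 6.54 in MDAMB435S. HLA-DRB5 was 9.99 in MDAMB435S, 9.96 in HCC1954 and 9.21 in EFM192B. In T47D, where the shared DRB probe set read 9.63, HLA-DRB3, HLA-DRB4 and HLA-DRB5 read 3.38, 5.25 and 4.86, all below background. HLA-DQB1, the beta chain of HLA-DQ, was above background in 37 lines, was highest in MDAMB435S at 13.001 and MFM223 at 11.47, and had a slope of 2.49 ± 0.85 within components (SE; limma unadjusted p = 0.00516, adjusted p = 0.989). HLA-DOB, a chain of the inhibitor of HLA-DM, was highest in HCC38 at 8.41. HLA-DOA, HLA-DPB2 and HLA-DQA2 were above background in 0 lines, and HLA-DQA1 was not analysed here.

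The promoter-bound partners of CIITA were found in every line. All 10 listed genes, RFX5, RFXAP and RFXANK of the RFX complex, NFYA, NFYB and NFYC of NF-Y, CREB1 and the coactivators EP300, CREBBP and KAT2B, were above background in all 58 lines. None passed in either fit, and their median slope was 0.144 with the component factor and 0.028 without, against 0.022 and 0.007 over all genes. Positive slopes at a limma unadjusted p under 0.05 were found for 2 of the 10 in each fit. These were RFX5 and NFYA with the factor and NFYA and NFYC without it. Over all 14651 genes the counts were 374 with the factor and 600 without. RFX5 was 11.47 in MDAMB435S, 11.64 in M4A4 and 11.69 in NM2C5, and its slope within components was 0.39 ± 0.16 (SE; limma unadjusted p = 0.0179, adjusted p = 0.989).

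Interferon-related and class I genes had more positive than negative slopes on CIITA, and no single one passed. Without the component factor 10 of 15 type I interferon induced genes, 7 of 15 MHC class I pathway genes, 4 of 11 interferon gamma induced genes and 2 of 9 genes of interferon gamma signalling had positive slopes at a limma unadjusted p under 0.05, against 600 of 14651 over all genes, and 0 in any of these lists passed adjustment. Their median slopes were 0.754, 0.445, 0.576 and 0.213. With the component factor 3, 1, 1 and 0 genes of these lists had positive slopes at that unadjusted p, against 374 of 14651 over all genes. In the fit without the factor IRF1, the interferon-responsive factor that activates the promoter of CIITA, had a slope of 0.63 ± 0.22 (SE; limma unadjusted p = 0.0056, adjusted p = 0.456) and was highest in HCC1187 at 10.52. PSMB9, an immunoproteasome subunit encoded within the class II region, had 0.94 ± 0.26 (SE; limma unadjusted p = 0.000676, adjusted p = 0.318), and IFI44 among the type I genes 1.36 ± 0.42 (adjusted p = 0.380). With the factor IRF1 had 0.63 ± 0.43 and PSMB9 0.88 ± 0.51 (SE; limma unadjusted p of 0.147 and 0.092). IFNG itself reached at most 3.27. In MB157 and MDAMB157, B2M, the light chain of class I, was 2.87 and 3.17 against a median of 12.92.

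**Figure D4:**
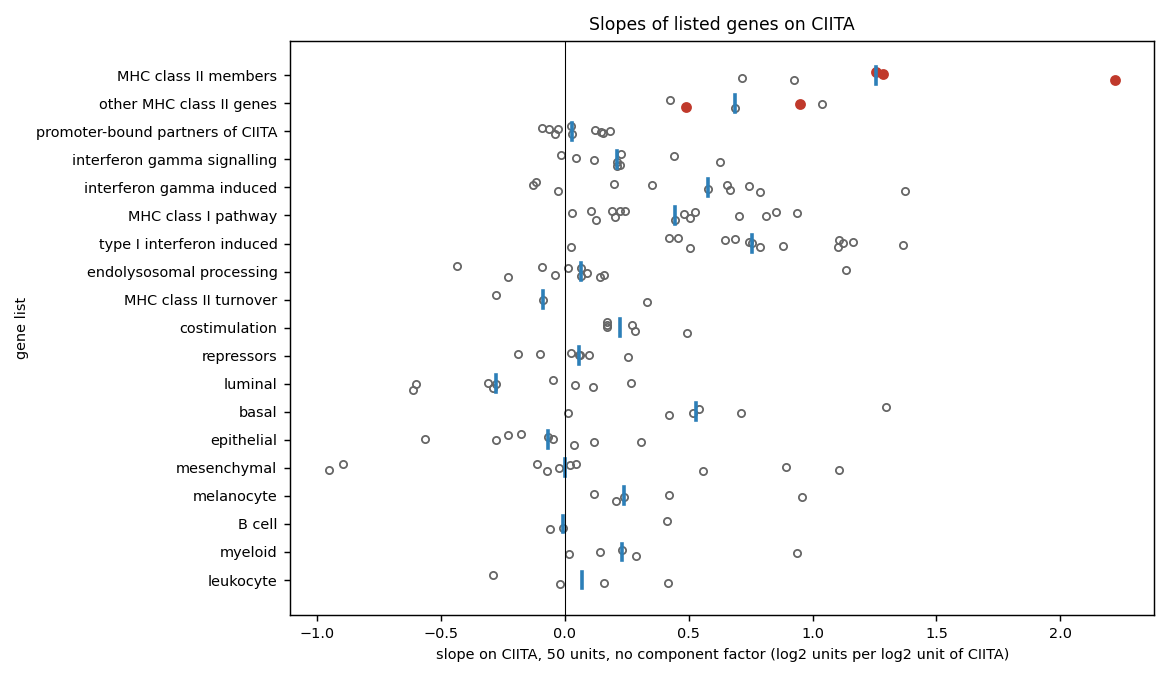
Each point is a gene of a list (vertical axis) and its slope on CIITA over 50 units in the fit without the component factor (horizontal axis, log2 units per log2 unit of CIITA). Red points passed a limma adjusted p of 0.05, blue bars are list medians; the red points all belong to the MHC class II lists, and the partners of CIITA lie close to 0.

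Of 11 genes of endolysosomal processing, 8 of costimulation, 7 repressors of CIITA and 3 of class II turnover measured, 0 passed in either fit. The protease CTSS, which trims the invariant chain, had a slope of 1.13 ± 0.35 without the component factor (SE; limma unadjusted p = 0.00233, adjusted p = 0.390). No luminal, basal, epithelial or mesenchymal gene had a limma unadjusted p under 0.05 in either fit, with median slopes of -0.276, 0.530, -0.068 and -0.001 in the fit without the factor.

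Outside the 8 members, the genes most like CIITA over the 50 units, by Pearson r and given as a description, were HLA-DRB4 (0.658), HLA-DRB3 (0.627), POT1 (0.518), DMBT1 (0.511), BATF3 (0.508), CA14 (0.508), PHC2 (0.493), TAF8 (0.490), FAM210A (0.476) and MRGPRX3 (0.465). Those most like the mean of the other 7 members were HLA-DRB3 (0.783), HLA-DRB4 (0.733), PSMB9 (0.616), UBA7 (0.601), HLA-DRB5 (0.598), PLAAT4 (0.578), GIMAP2 (0.556), MX1 (0.55), RTP4 (0.535) and EDNRB (0.527). These values take in the separation of the CIITA components and of the MDAMB435 unit.

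Markers of the cells that normally carry MHC class II were looked at in the same arrays. The leukocyte genes PTPRC, CD3E and CD2, the B cell genes MS4A1, CD79A and PAX5 and the myeloid gene LYZ were below background in all 58 lines. Other genes of these lists, some of which are also found in other cell types, were above background in some lines, such as CD14 in 33, CD68 in 32, LAPTM5 in 16, CORO1A in 53 and CD22 in 10. CD14 and CD22 had slopes on CIITA of 0.94 ± 0.31 and 0.41 ± 0.18 in the fit without the component factor (SE; limma unadjusted p of 0.00366 and 0.0291, adjusted p of 0.421 and 0.648). The mean level of the 7 leukocyte markers lay between 4.06 and 5.16 in the 7 units of the higher CIITA component and between 3.79 and 5.88 in the 43 others. That of the 6 measured B cell markers lay between 4.42 and 4.90 against 4.17 and 5.02, and that of the 7 measured myeloid markers between 4.42 and 5.86 against 3.85 and 6.30. The medians of the myeloid list were 5.39 and 4.59, those of the B cell list 4.56 and 4.45 and those of the leukocyte list 4.36 and 4.26, and the ranges overlapped for each list. The part of such genes in the relation of the members to CIITA was not tested. The mean of 7 melanocyte markers was 10.27 in the MDAMB435 unit and at most 6.49 in the lower component, in HCC38.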

How the data were processed

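The deposited table holds intensities on the log2 scale, computed by the authors with Affymetrix Power Tools (RMA), per the submitters' processing notes, whose versions are not given in the sources used here. Per the labels, biotin was the label and amplification followed NuGEN. RMA pulls arrays to one distribution of intensities, and low values are compressed. Of 52377 probe sets, 35184 named 1 gene, and 374 that named several were left out, apart from the 2 of HLA-DRB1/3/4/5. Names came from the platform annotation, updated through a RefSeq gene table of GRCh38.p14.

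Related lines were averaged to 50 units. limma 3.58.1 in R 4.3.3 (trend and robust, adjusted over all detected genes) gave slopes on CIITA. Components of CIITA came from mclust 6.1.1 (a gain of over 10 BIC units, Ashman's D over 2, at least 3 units each), and correlations from exact permutations or 100000 random ones. P-values measure the spread between lines. The steps were tested on simulated data.

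The members, gene lists and tests were chosen with earlier results of these data known. The genes named were the members, any gene of the other class II, partner, interferon gamma signalling and class I lists, up to 3 genes with the smallest adjusted p of each other list, and the 10 genes most like CIITA and most like the other members. IRAK1BP1, ARID3A, TYR, MLANA, PMEL, TYRP1, IFI27, CDH1 and EPCAM in MB157 and MDAMB157, and the leukocyte, B cell and myeloid genes were named after their values were seen. Alternatives changed the probe set, normalization, filter, units, lines used, array quality and scale of CIITA.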

Additional observations from a re-analysis of the deposited data

How the results depend on the processing

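With the component factor 0 genes were called in 12 of the 13 settings tried and in all 50 fits that left out 1 unit; with all 58 lines as units, which counts related lines separately, 23 genes, 4 members and 2 genes of the other lists (HLA-DRB3 and the melanocyte gene TYR) were called. Without the factor, a setting chosen after seeing the data, 7 genes, 3 members and 2 genes of the other lists (HLA-DRB3 and HLA-DRB4) were called. These counts were again 7, 3 and 2 with a second quantile normalization, with array quality as a term and with neither trend nor robust fitting. They were 9, 3 and 2 with the mean of all probe sets and 6, 2 and 2 with no filter. Without the immortalised lines, with HMT3522T42 left out along with HMT3522S1, they were 11, 3 and 2. Without MDAMB435 and MT3 they were 7, 1 and 0, and with ranks of CIITA 1, 1 and 0. With 58 lines as units they were 58, 7 and 4, the 4 being HLA-DRB3, HLA-DRB4, HLA-DRB5 and TYR. Leaving out 1 unit at a time gave 0 to 9 genes, 0 to 3 members and 0 to 2 genes of the other lists over both fits. The fit with the factor gave 0 each time, and the fit without it 2 to 9 genes and 1 to 3 members. All 610 slopes of the members that passed the filter were positive under the 122 alternatives. HLA-DPA1 and HLA-DPB1 are not among them. Most alternatives left out 1 unit and share nearly all their data, so these slopes are not independent. The number of member values above background was 183 as reported and 162, 193 and 181 with the mean of probe sets, the array median as background and a second quantile normalization, and the 48 member values apart between related lines became 44 and 50 with the mean of probe sets and the second normalization. CIITA, HLA-DRA, HLA-DMB, HLA-DPA1 and HLA-DPB1 lie near or below background in most lines. This limits what can be read from their differences and relations there, and 1 array per line gives no error for a single line.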
